A study of Mus musculus with 4 samples.

Results

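The smooth muscle contractile genes other than actins were examined in neural progenitor cells (NPCs) with and without knockdown of Srf. They were taken by gene symbol, as Tagln, Cnn1, Cald1, Lmod1, Smtn, Synpo2, Myl9, Myh11, Mylk and Des, and all 10 were found among the 21862 genes listed once in each library. RNA sequencing had been performed on N31 NPCs, a mouse NPC line obtained by differentiating induced pluripotent stem cells that had themselves been made from NPCs. All 4 groups therefore carried the same doxycycline-dependent reprogramming cassette and a reverse tetracycline transactivator under the CAG promoter. The groups were control NPCs on a 0.5 kPa matrix, control NPCs on a 12 kPa matrix, NPCs expressing the short hairpin shSrf from a retroviral vector on 0.5 kPa, and shSrf NPCs on 12 kPa. All 4 groups were kept in NPC medium lacking the growth factors EGF and bFGF, on matrices over dishes coated with type I collagen. Whether the control NPCs carried a vector of their own is not given in the sources used here. The groups answer how a soft and a stiff matrix and the loss of Srf change the RNA of NPCs. Each group was 1 library of 1 cell line with 1 hairpin, so the differences below stand without replicates and carry no p-values.

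Smooth muscle contracts when myosin II filaments pull on actin filaments, and the contraction is switched on by phosphorylation of the myosin regulatory light chain. Serum response factor (Srf) binds a short DNA element, the CArG box, in the promoters and introns of many of these genes, with myocardin or the myocardin-related factors Mkl1 and Mkl2 as coactivators. Mkl1 and Mkl2 are held in the cytoplasm by monomeric actin, which ties the transcription of these genes to the state of the actin cytoskeleton. Several of the proteins are not restricted to smooth muscle, and fibroblasts, pericytes and other cells that spread on stiff surfaces also make them.

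The values are FPKM, which scales the reads of a gene to transcript length and to library size, so that levels can be compared between genes. Depth was estimated from the smallest step between low FPKM values, at 29100000, 24100000, 45100000 and 62400000 reads for control 0.5 kPa, control 12 kPa, shSrf 0.5 kPa and shSrf 12 kPa, and the standard error (SE) given beside a log2 ratio covers the counting of these estimated reads alone. Srf itself was at 34.4 and 35.6 FPKM in the control libraries and at 16.2 and 17.4 FPKM in the shSrf libraries. Of 10 markers of neural progenitors, 5 were above 2 FPKM in each control library and 6 in each shSrf library, while Sox1 and Olig2 were listed at 0 in all 4 and Fabp7 in both control libraries. Their summed level was 96.0 to 98.4 FPKM in control NPCs and 67.2 to 72.5 FPKM in shSrf NPCs. In control NPCs most of this sum was Nes and Slc1a3, which were past 2-fold lower with shSrf at both stiffnesses. In contrast, Sox2 and Msi1 were past 2-fold higher at both and Pax6 at 0.5 kPa. The highest of these markers in shSrf NPCs was Sox2, at 19.1 and 20.4 FPKM. Over the 6 with a mean above 2 FPKM the median log2 ratio of shSrf to control was 0.65 at 0.5 kPa and 0.44 at 12 kPa. Msi1 passed that mean only through the shSrf libraries, at 3.91 and 3.74 FPKM against 1.29 and 0.860 FPKM in control, so its place in the median is a description. Of 10 fibroblast markers, 9 or 10 were above 2 FPKM in each library, and their sum was 3039 to 3254 FPKM in control and 3011 to 3094 FPKM in shSrf NPCs. Col3a1 made up most of this sum, at 1584 to 1908 FPKM, and other fibroblast markers went in both directions, with log2 ratios at 0.5 and 12 kPa of -2.64 and -2.82 for Postn, -1.38 and -0.90 for Thy1, 1.54 and 1.60 for Dcn and 1.27 and 1.48 for Lum. Lum was above 2 FPKM in the shSrf libraries alone, at 3.28 and 3.38 FPKM against 1.36 and 1.22 FPKM in control. Of 8 pericyte markers, 5 were above 2 FPKM in each library, with 2 listed at 0 in the control libraries, and their sum was 92.7 to 100 FPKM in control and 54.5 to 66.1 FPKM in shSrf NPCs. The lower pericyte sum came from Mcam, with log2 ratios of -2.72 and -2.64, while Pdgfrb had 0.61 and 0.72 and Notch3 0.74 and 1.11, and the median over the 5 with a mean above 2 FPKM was -0.12 at 0.5 kPa and 0.35 at 12 kPa. Marker genes singled out here were chosen after their values were seen. Of 5 endothelial markers none passed 2 FPKM in any library, and their sum was 0.750 to 0.915 FPKM in control and 0.810 to 1.23 FPKM in shSrf NPCs. The part of these markers in the results that follow was not tested.

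CArG boxes were searched in the RefSeq promoter windows of the members (GRCm38.p6, 250 bases before to 50 bases after each start), since this is the element that Srf binds. The box is a run of A and T between a CC and a GG, 10 bases in all, and reads as a CArG box on both strands, so 1 search covers both. A window was present for 8 of the 10 members; Tagln and Myh11 had none. Myl9 alone held an exact box, and Myl9, Lmod1 and Cald1 held boxes with up to 1 mismatch. Among all 32851 windows, 535 held an exact box, or 1.63%, and 21.1% held a box with up to 1 mismatch. The 3 stretches are shown on the plus strand with each box in capitals.
Myl9, chr2:156775278-156775399: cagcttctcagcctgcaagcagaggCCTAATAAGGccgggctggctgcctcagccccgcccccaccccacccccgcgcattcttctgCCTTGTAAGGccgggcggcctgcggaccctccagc
Lmod1, chr1:135324599-135324683: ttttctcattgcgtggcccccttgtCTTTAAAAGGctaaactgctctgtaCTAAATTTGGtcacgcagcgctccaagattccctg
Cald1, chr6:34598276-34598335: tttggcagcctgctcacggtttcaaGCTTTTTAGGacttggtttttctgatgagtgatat
Distances are counted to the transcript start of each window, which for Myl9 lies downstream of the first base of the gene given below, and Cald1 has 2 windows, of which the upstream one held the box. The first Myl9 box was the exact one and began 161 bases before the start, and the second, with 1 mismatch, began 99 bases before it. The Lmod1 boxes began 189 and 164 bases before the start and the Cald1 box 203 bases before it, each with 1 mismatch. A match of letters is a description of the window, not a site that was seen to be bound, and boxes outside the windows were not searched.

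In control NPCs the members spanned a wide range of levels. At 0.5 kPa the order was Cald1 at 355 FPKM, Myl9 at 346, Tagln at 298, Cnn1 at 95.0, Smtn at 37.2, Synpo2 at 12.3, Des at 6.31, Mylk at 4.49, Lmod1 at 3.33 and Myh11 at 0.998 FPKM. With 1 library a group, no spread shows whether neighbours in this order differ. The members summed to 1158 and 1134 FPKM in control NPCs at 0.5 and 12 kPa and to 329 and 354 FPKM in shSrf NPCs. Their median was 24.7 and 25.9 FPKM in control and 7.49 and 8.81 FPKM in shSrf NPCs, where the median of the genes with a mean above 2 FPKM was 20.4 to 20.5 FPKM in every library. Since bulk RNA was measured, fewer cells with these transcripts and less of them in each cell cannot be told apart.

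**Figure D1:**
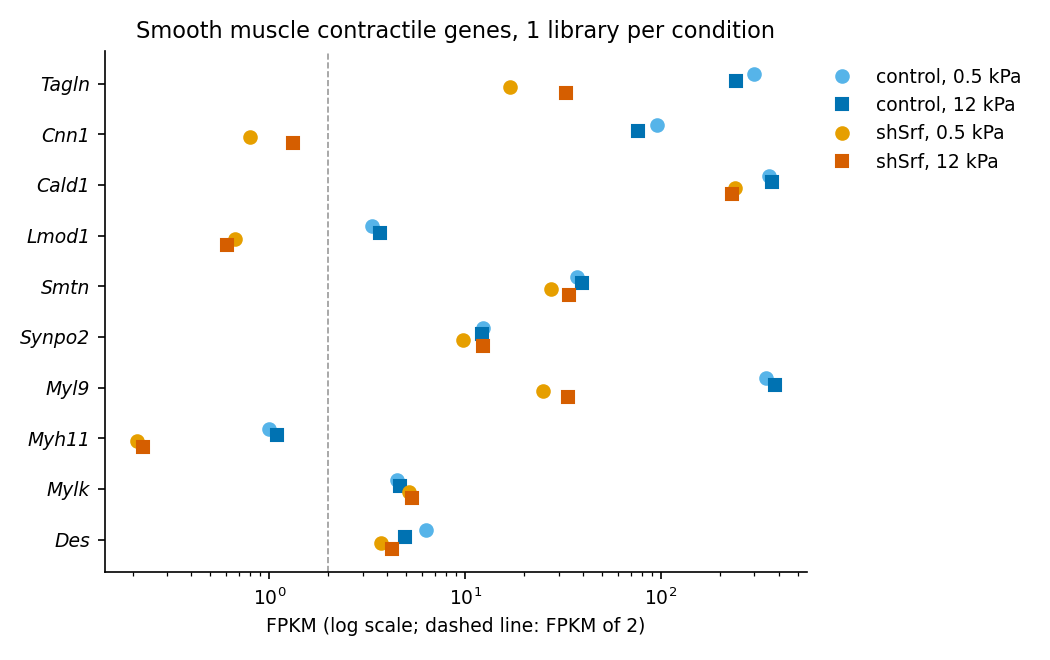
FPKM of the 10 members in the 4 libraries on a log axis, 1 point a library, grouped by the role of the gene. Cnn1, Tagln and Myl9 in the shSrf libraries lie far below the control libraries, from 95.0 to 0.795 FPKM for Cnn1 at 0.5 kPa, while Mylk and Synpo2 lie within a narrow band.

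Knockdown of Srf went with levels more than 2-fold lower for 5 of the 10 members, Cnn1, Tagln, Myl9, Lmod1 and Myh11, at 0.5 kPa and for the same 5 at 12 kPa. Past 2-fold lower were 3.58% of the 10979 genes with a mean above 2 FPKM at 0.5 kPa and 2.91% of 10980 at 12 kPa. No member was past 2-fold higher, against 3.70% and 4.02% of those genes. The median log2 ratio of shSrf to control over the 10 members was -1.50 at 0.5 kPa and -1.47 at 12 kPa, beside 0.015 and 0.014 over all genes with a mean above 2 FPKM. Over the 9 members that also had a mean above 2 FPKM, without Myh11, the medians were -0.76 and -0.68. The members ranged from -6.90 to 0.20 at 0.5 kPa and from -5.85 to 0.20 at 12 kPa, and 5th and 95th percentiles of all genes were -0.85 and 0.88, then -0.80 and 0.89. All 10 members were above 0 in every library, 9 had a mean above 2 FPKM and 7 were above 2 FPKM in all 4 libraries; Cnn1 and Lmod1 passed the mean only through the control libraries, and Myh11, with a mean of 0.631 FPKM, did not pass it.

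Among the genes of the thin filament, Cnn1 encodes calponin 1, which binds actin and restrains the myosin ATPase (chromosome 9, 22099221 to 22109221, mm10). Cnn1 was at 95.0 FPKM in control NPCs on 0.5 kPa, 76.1 in control on 12 kPa, 0.795 in shSrf on 0.5 kPa and 1.32 in shSrf on 12 kPa. The control and shSrf values were 120-fold apart at 0.5 kPa and 57.7-fold apart at 12 kPa, with log2 ratios of -6.90 (SE 0.16) and -5.85 (SE 0.11). At both stiffnesses this was rank 1 from the lowest ratio among the genes with a mean above 2 FPKM, a set that Cnn1 entered only through its control libraries, so the rank is a description. The shSrf values rested on an estimated 77.7 and 178 reads, and the control values on 5996 and 3975.

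Tagln (chromosome 9, 45929628 to 45936058) encodes transgelin, or SM22, an actin-binding protein of the calponin family that appears early in smooth muscle differentiation. Tagln was at 298 and 242 FPKM in control NPCs on 0.5 and 12 kPa and at 16.9 and 32.6 FPKM in shSrf NPCs. It was thus 17.6-fold lower with shSrf on 0.5 kPa and 7.43-fold lower on 12 kPa, with log2 ratios of -4.13 (SE 0.046) and -2.89 (SE 0.032) and ranks of 4 and 11 from the lowest. Both control libraries lay above both shSrf libraries.

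Cald1 encodes caldesmon, which binds actin, tropomyosin and myosin along the thin filament and has a smooth muscle and a non-muscle form (chromosome 6, 34598495 to 34775469). It was at 355 and 368 FPKM in control and at 240 and 230 FPKM in shSrf NPCs. The log2 ratios of -0.57 (SE 0.0093) and -0.68 (SE 0.0091) did not pass 2-fold. The value is given per gene, so the forms of caldesmon could not be separated.

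Lmod1, leiomodin 1, nucleates actin filaments in smooth muscle (chromosome 1, 135324813 to 135368065). It was low throughout, at 3.33 and 3.67 FPKM in control and 0.669 and 0.608 FPKM in shSrf NPCs, a level 4.98-fold lower on 0.5 kPa and 6.04-fold lower on 12 kPa. The log2 ratios were -2.32 (SE 0.16) and -2.59 (SE 0.14), resting on at least an estimated 113 reads in each library. The 2 control values lay above both shSrf values.

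Smtn (chromosome 11, 3517522 to 3539292) encodes smoothelin, an actin-associated protein of contractile smooth muscle, and Synpo2 (chromosome 3, 123076519 to 123236168) encodes synaptopodin 2, or myopodin, an actin-bundling protein that binds filamin and alpha-actinin. Smtn was at 37.2 and 39.7 FPKM in control and at 27.4 and 34.0 FPKM in shSrf NPCs, with log2 ratios of -0.44 (SE 0.034) and -0.22 (SE 0.031). Synpo2 was at 12.3 and 12.2 FPKM in control and at 9.80 and 12.3 FPKM in shSrf NPCs, with log2 ratios of -0.33 (SE 0.039) and 0.02 (SE 0.038). Neither passed 2-fold, and the Synpo2 values of the groups overlapped. Centred among genes of like GC content, the Smtn log2 ratios were -0.67 and -0.58 and those of Synpo2 -0.23 and 0.11.

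Of the genes of the thick filament, Myl9 encodes the regulatory light chain of smooth muscle and non-muscle myosin II, the protein that is phosphorylated to start contraction (chromosome 2, 156775408 to 156781657). Myl9 was at 346 and 382 FPKM in control NPCs and at 25.1 and 33.7 FPKM in shSrf NPCs. It was 13.8-fold lower with shSrf on 0.5 kPa and 11.3-fold lower on 12 kPa, with log2 ratios of -3.78 (SE 0.047) and -3.50 (SE 0.036), and was rank 7 from the lowest at both stiffnesses. Its window held the exact CArG box shown above. The window of Cnn1, the member with the lowest ratio, held no box, and Cald1, which did not pass 2-fold, had a box with 1 mismatch. Whether the boxes go with the ratios was not tested.

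Myh11 encodes the smooth muscle myosin heavy chain, the marker held to be most specific for mature smooth muscle (chromosome 16, 14194527 to 14292188). It was the lowest member in control NPCs, at 0.998 and 1.09 FPKM, and was at 0.210 and 0.227 FPKM in shSrf NPCs. The level was 4.74-fold lower on 0.5 kPa and 4.80-fold lower on 12 kPa, with log2 ratios of -2.25 (SE 0.21) and -2.26 (SE 0.19) and an estimated 61.0 reads in the lowest library. With 1 FPKM added to each value the log2 ratios were -0.72 and -0.77, which no longer passed 2-fold.

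Mylk encodes the myosin light chain kinase, which phosphorylates the regulatory light chain, and a longer form is made in non-muscle cells (chromosome 16, 34745199 to 35002436). Mylk was at 4.49 and 4.64 FPKM in control and at 5.18 and 5.33 FPKM in shSrf NPCs. It was the only member whose ratio was above its counting SE in the higher direction at both stiffnesses, with log2 ratios of 0.20 (SE 0.057) and 0.20 (SE 0.057), or 1.15-fold. Des encodes desmin, the intermediate filament protein of muscle (chromosome 1, 75360292 to 75368579). Des was at 6.31 and 4.93 FPKM in control and at 3.73 and 4.25 FPKM in shSrf NPCs, with log2 ratios of -0.76 (SE 0.092) and -0.22 (SE 0.095).

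**Figure D2:**
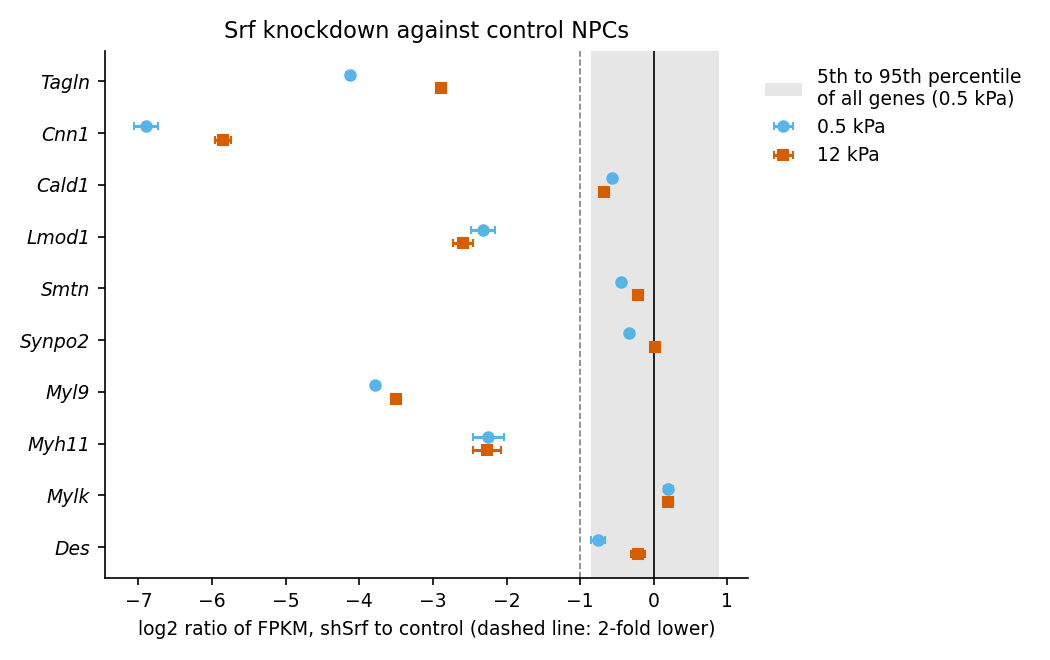
Log2 ratio of shSrf to control for each member at 0.5 kPa and at 12 kPa, with the counting SE as error bars and the 5th to 95th percentile of all genes with a mean above 2 FPKM at 0.5 kPa as a grey band. Cnn1, Tagln, Myl9, Lmod1 and Myh11 lie below the band, from -6.90 to -2.25 at 0.5 kPa, and the other 5 members lie within it.

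The genes that act on Srf were measured beside the members. Srf was 2.12-fold lower with shSrf at 0.5 kPa and 2.04-fold lower at 12 kPa, with log2 ratios of -1.09 (SE 0.036) and -1.03 (SE 0.033). Mkl1 was at 34.6 FPKM in control and 23.9 FPKM in shSrf NPCs on 0.5 kPa, with log2 ratios of -0.53 at 0.5 kPa and -0.13 at 12 kPa. Mkl2 was at 10.8 and 9.63 FPKM in control and at 8.40 and 8.44 FPKM in shSrf NPCs, so transcripts of both coactivators were present. Myocd, the myocardin gene of cardiac and smooth muscle, was listed at 0 in both 0.5 kPa libraries and at 0.0125 and 0.00673 FPKM in the control and shSrf libraries on 12 kPa. These last values stand for an estimated 1.48 and 2.06 reads, below the 3 reads that a count of 0 allows, and no fold was taken.

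Myl9, Cnn1, Tagln and Myh11 have close relatives that many non-muscle cells use, and the share of each member within its family was compared on the FPKM scale. Myl9 made up 25.1% and 26.6% of the summed FPKM of Myl9, Myl12a and Myl12b in control NPCs and 2.69% and 3.49% in shSrf NPCs. Myl12a, a non-muscle regulatory light chain, was at 892 and 883 FPKM in control and at 705 and 716 FPKM in shSrf NPCs, and Myl12b at 142 and 169, then 204 and 216 FPKM. The log2 ratios of shSrf to control were -0.34 and -0.30 for Myl12a and 0.52 and 0.35 for Myl12b. Myl12a and Myl12b share 11.2% of the 30-base words of Myl12a, so the division of reads between them is uncertain, whereas Myl9 shares 0.546% of its words with each. The sum of the 3 regulatory light chains was 1380 and 1435 FPKM in control and 934 and 966 FPKM in shSrf NPCs.

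Calponins and transgelins gave a similar contrast between the member and its relatives. Cnn1 was 7.05% and 5.72% of the summed calponin FPKM in control NPCs and 0.0944% and 0.151% in shSrf NPCs. Cnn2, the calponin of many non-muscle cells, was at 493 and 484 FPKM in control and at 393 and 410 FPKM in shSrf NPCs, and Cnn3, the acidic calponin, at 760 and 770, then 448 and 460 FPKM. Tagln was 53.8% and 56.7% of the summed transgelin FPKM in control NPCs and 17.5% and 26.1% in shSrf NPCs. Tagln2, the widely expressed transgelin, was at 251 and 182 FPKM in control and at 78.2 and 90.7 FPKM in shSrf NPCs, past 2-fold lower at both stiffnesses, with log2 ratios of -1.68 and -1.01. Cnn1 and Tagln shared 0% of their 30-base words with their relatives.

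Among the myosin II heavy chains Myh11 was a small part in every library, 0.845% and 0.819% of the summed FPKM in control and 0.174% and 0.163% in shSrf NPCs. Myh10, the heavy chain of non-muscle myosin IIB, was at 93.7 and 109 FPKM in control and at 109 and 125 FPKM in shSrf NPCs. Myh9, the heavy chain of non-muscle myosin IIA, was at 23.3 and 22.8, then 12.0 and 14.1 FPKM, with log2 ratios of -0.95 and -0.70. Des, likewise, stood beside far higher intermediate filament genes. Vim, which encodes vimentin, was at 1696 and 1481 FPKM in control and at 2380 and 2396 FPKM in shSrf NPCs, and Nes, which encodes the progenitor filament nestin, at 51.6 and 36.1, then 16.4 and 15.5 FPKM. Of the 23 paralogs listed for the members, 12 had a mean above 2 FPKM. With shSrf, 3 of these were past 2-fold lower at 0.5 kPa (Tagln2, Tagln3 and Nes) and 2 at 12 kPa (Tagln2 and Nes). At both stiffnesses 0 were past 2-fold higher. Of all genes with a mean above 2 FPKM, 3.58% and 2.91% were past 2-fold lower and 3.70% and 4.02% higher. A count of 0 higher in 12 genes is near these shares and is not a result about the paralogs. Tagln3 passed the mean only through the control libraries, so its place in the count of lower paralogs is a description.

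**Figure D3:**
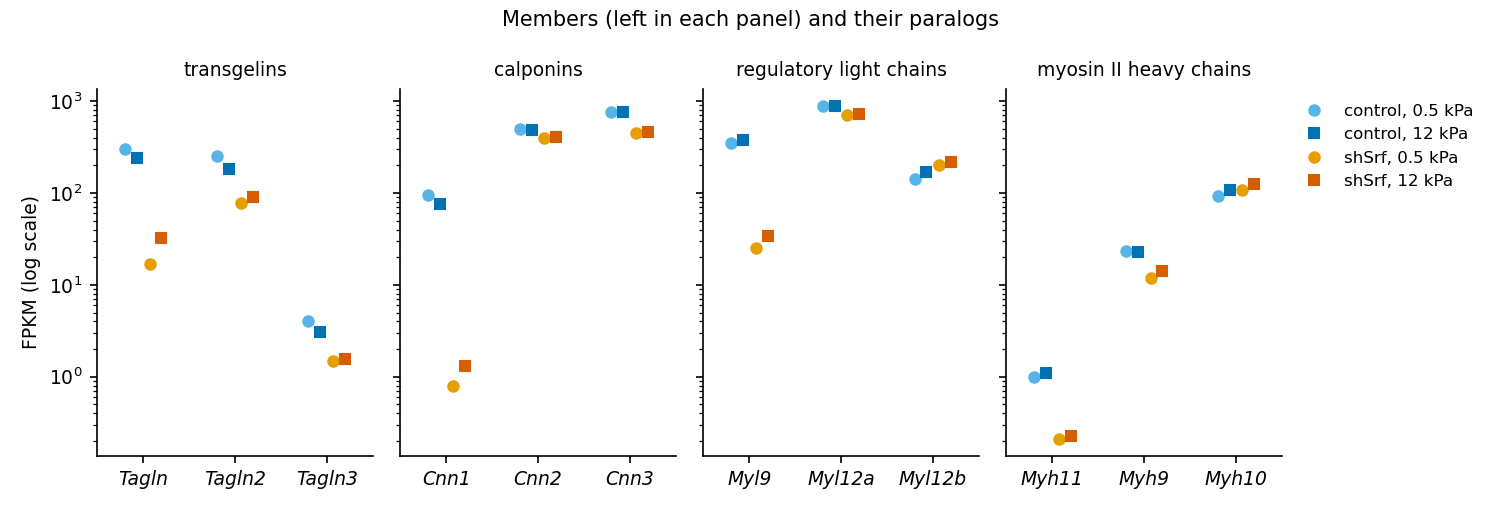
FPKM in the 4 libraries, on log axes, of the transgelins, calponins, myosin regulatory light chains and myosin II heavy chains, with the smooth muscle member of each family marked. In each family the shSrf libraries lie further below the control libraries for the member than for its relatives, as Cnn1 from 95.0 to 0.795 FPKM beside Cnn2 from 493 to 393 FPKM at 0.5 kPa.

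Other genes of smooth muscle contraction were counted from a list of 24 that held actins, tropomyosins, channels and receptors, of which 20 had a mean above 2 FPKM. At 0.5 kPa 6 were past 2-fold lower with shSrf and 1, Gucy1b3, past 2-fold higher. At 12 kPa 6 were lower and 0 higher, and the same 6 were lower at both. Among all genes with a mean above 2 FPKM, 3.58% and 2.91% were past 2-fold lower and 3.70% and 4.02% higher. Over the 20 the log2 ratios had medians of -0.36 and -0.42. Acta2, the smooth muscle alpha-actin, was at 321 and 322 FPKM in control and at 6.74 and 8.96 FPKM in shSrf NPCs, with log2 ratios of -5.58 and -5.17. Actg2, the smooth muscle gamma-actin, passed the mean only through the control libraries and had log2 ratios of -3.66 and -4.75, and Csrp1, a LIM protein of smooth muscle, -1.75 and -1.50. Of the tropomyosins, which lie along the actin filament, Tpm2 had log2 ratios of -1.42 and -1.36 and Tpm1 of -0.78 and -0.51.

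Of 17 genes whose products set light chain phosphorylation 14 had a mean above 2 FPKM. Of these 14, 0 were past 2-fold in either direction at either stiffness, with a median log2 ratio of -0.29 at both. Among all genes with a mean above 2 FPKM, 3.58% and 2.91% were past 2-fold lower and 3.70% and 4.02% higher. A count of 0 in 14 genes is near these shares and is not a result about the list. The other 3, the kinase genes Mylk2, Mylk3 and Mylk4, were at 0.379 FPKM or lower in every library. Mylk3 had a log2 ratio of 2.34 at 0.5 kPa, with FPKM of 0.0491 in control and 0.249 in shSrf NPCs, and Mylk2 1.09 at 12 kPa, from an estimated 7.99 reads in control and 44.1 in shSrf NPCs. Calm2 and Calm3 encode calmodulin, which activates the kinase, and had log2 ratios at 0.5 and 12 kPa of 0.16 and 0.00 for Calm2 and of -0.29 and -0.26 for Calm3. Rhoa, the GTPase that promotes light chain phosphorylation, had log2 ratios of -0.29 and -0.33, its kinase Rock2 -0.58 and -0.65, and the phosphatase subunit Ppp1r12b -0.36 and -0.46. Of 7 genes of non-muscle myosin, 6 had a mean above 2 FPKM, of which 0 passed 2-fold, again near the shares of all genes. The medians of their log2 ratios were -0.07 and -0.05. The remaining gene, Myh14, had -0.53 on the soft and 2.89 on the stiff matrix, where the control value rested on an estimated 5.08 reads. Myl6, the essential light chain of these myosins, had log2 ratios of -0.18 and -0.31. Whether these lists differ from the members was not tested.

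The stiff and the soft matrix were compared within control and within shSrf NPCs, and members past 1.1-fold, a log2 ratio of 0.138, were counted. In control NPCs 3 of the 10 members, Tagln, Cnn1 and Des, were past 1.1-fold lower on 12 kPa, where 17.8% of the 10979 genes were, and 2, Myl9 and Lmod1, were past 1.1-fold higher, where 18.8% were. Shares of this size in 10 genes are near the background and are not a result about the members. The median log2 ratio of the members was 0.05 and that of all genes with a mean above 2 FPKM 0.0036. Tagln was 1.23-fold lower on 12 kPa, with a log2 ratio of -0.30 (SE 0.021), Cnn1 1.25-fold lower, with -0.32 (SE 0.030), and Des 1.28-fold lower, with -0.35 (SE 0.10). Only Des lay below -0.33, the 5th percentile of all genes. The log2 ratio of Myl9 was 0.14 (SE 0.022) and that of Lmod1 0.14 (SE 0.11), and Lmod1 no longer passed 1.1-fold with 1 FPKM added, at 0.11, or centred on the median, at 0.13.

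In shSrf NPCs 6 of the 10 members were past 1.1-fold higher on 12 kPa, namely Tagln, Cnn1, Myl9, Synpo2, Smtn and Des, where 18.6% of 10981 genes were. Past 1.1-fold lower was 1 member, Lmod1, where 13.6% were. The member median was 0.25 against 0.0076 for all genes with a mean above 2 FPKM, whose 5th and 95th percentiles were -0.23 and 0.31. Tagln was 1.92-fold higher on the stiff matrix, with a log2 ratio of 0.94 (SE 0.052), and Cnn1 1.66-fold higher, with 0.73 (SE 0.20). Both remained in shSrf NPCs on 12 kPa far below the control level, at 32.6 FPKM against 242 and at 1.32 FPKM against 76.1. Myl9 was 1.34-fold higher, with a log2 ratio of 0.42 (SE 0.055), Synpo2 1.25-fold, with 0.33 (SE 0.033), Smtn 1.24-fold, with 0.31 (SE 0.029), and Des 1.14-fold, with 0.19 (SE 0.085). Des was at 0.13 when centred among genes of like GC content and then did not pass 1.1-fold, and Lmod1, at -0.14 (SE 0.18), differed by less than its counting error.

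Cald1, Mylk and Myh11 did not pass 1.1-fold in either population. Cald1 had log2 ratios of 12 to 0.5 kPa of 0.05 (SE 0.0098) in control and -0.06 (SE 0.0086) in shSrf NPCs. Mylk had 0.05 (SE 0.067) and 0.04 (SE 0.045), and Myh11 0.13 (SE 0.15) and 0.11 (SE 0.24), within their counting errors. Srf had log2 ratios of 0.05 in control and 0.10 in shSrf NPCs, and Mkl1 of -0.21 and 0.20. Pericyte markers summed to 54.5 FPKM on 0.5 kPa and 66.1 FPKM on 12 kPa in shSrf NPCs. Of the 5 with a mean above 2 FPKM, 5 were past 1.1-fold higher on 12 kPa, where 18.6% of all genes were. The part of such genes in the shSrf ratios was not tested.

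**Figure D4:**
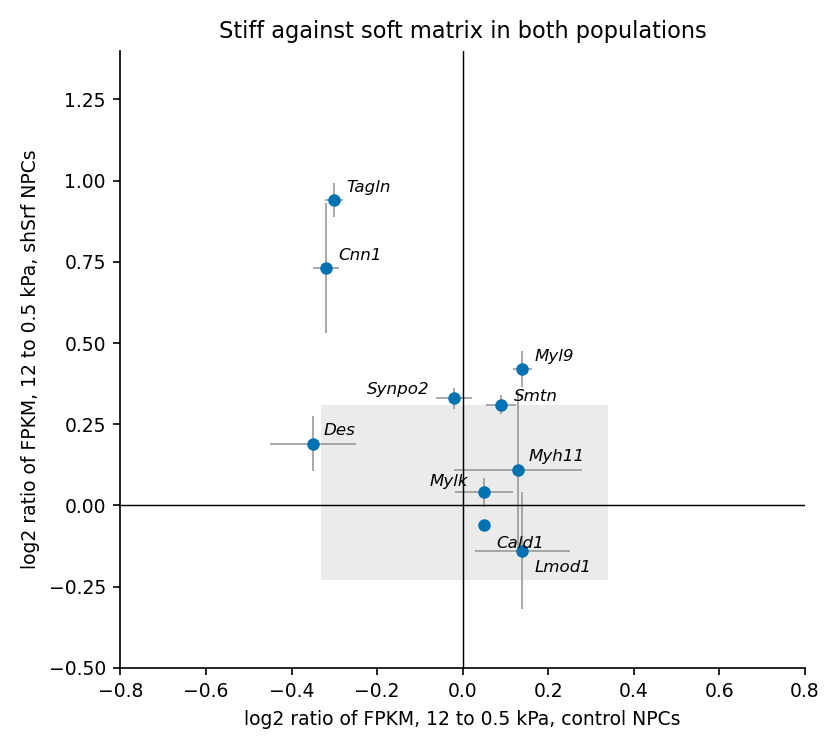
Log2 ratio of 12 to 0.5 kPa in control NPCs (x axis) and in shSrf NPCs (y axis), 1 point a member, with counting SE as error bars and a grey rectangle from the 5th to the 95th percentile of all genes with a mean above 2 FPKM on each axis. Tagln and Cnn1 lie at the upper left, at -0.30 and 0.94 and at -0.32 and 0.73, while Mylk and Myh11 lie inside the rectangle.

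The log2 ratio of 12 to 0.5 kPa was higher in shSrf than in control NPCs by 1.24 (SE 0.056) for Tagln and by 1.05 (SE 0.20) for Cnn1. These were ranks 29 and 55 from the highest among 10979 genes, whose 5th and 95th percentiles were -0.37 and 0.45. Cnn1 entered this set only through its control libraries, so its rank is a description. Des differed by 0.54 (SE 0.13), Synpo2 by 0.34 (SE 0.054), Myl9 by 0.28 (SE 0.059) and Smtn by 0.22 (SE 0.046). The difference was -0.11 (SE 0.013) for Cald1, -0.28 (SE 0.21) for Lmod1 and -0.02 (SE 0.28) for Myh11. Of the 2 smooth muscle actins, Acta2 had log2 ratios of 12 to 0.5 kPa of 0.00 in control and 0.41 in shSrf NPCs. Actg2 went the other way, with 0.09 in control and -1.01 in shSrf NPCs, a difference of -1.09 (SE 0.40). Its lowest library rested on an estimated 24.0 reads. The 2 populations share no library in this comparison, but each ratio rests on 1 library a matrix, so that a difference between 2 cultures and an effect of the matrix cannot be told apart.

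The median profile of the 9 members with a mean above 2 FPKM, each on the log2 scale and centred on its own mean, was 0.42, 0.34, -0.34 and -0.34 over control 0.5 kPa, control 12 kPa, shSrf 0.5 kPa and shSrf 12 kPa. Among 10970 other genes the nearest by Euclidean distance over these 4 libraries were Crybg3 at 0.0414, Pinx1 at 0.0517, Bok at 0.0527, Icmt at 0.0538 and Fam49b at 0.0541, beside a median distance of 0.769. Crybg3 was at 7.58 and 7.11 FPKM in control and at 4.50 and 4.48 FPKM in shSrf NPCs. Myh11 did not enter the profile, which therefore held 4 members past 2-fold and 5 that were not.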

How the data were processed

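Poly(A) RNA of the 4 cultures was sequenced single-end from stranded libraries. The authors trimmed reads with cutadapt 1.9.1, mapped them to mm10 with TopHat2 2.1.0 and Bowtie2 2.2.8 and computed FPKM with Cufflinks 2.2.1, and these FPKM values were deposited per gene and library. Whether the counting used strand is not given in the sources used here. Ratios were log2 of FPKM without a pseudocount. Symbols listed more than once (63) were left out, and all genes with a mean above 2 FPKM (10984) served as background. Reads per gene, the SE and the floor of 3 reads came from the estimated depth and the longest transcript of a GENCODE annotation of an older mouse build, matched by symbol; these are approximate. Coordinates are those of RefSeq for GRCm38. Differences past 2-fold (knockdown) or 1.1-fold (stiffness) were counted. Genes named besides the members were Srf and its coactivators, from each list the 4 with the highest mean FPKM and the 2 with the largest mean knockdown ratio among those above the mean filter, and the 5 nearest profiles; a gene that the rule chose is not reported here. The members and lists were chosen with earlier results of these data known. Alternatives were pseudocounts of 1 and 0.1, a minimum of 2 FPKM in all 4 libraries or none, centring on the median or within 50 GC bins (GC known for 98.2% of background genes), scaling to the 75th percentile and a 1.5-fold threshold. Scripts were tested on simulated data and run in Python 3.11.15 (pandas 2.3.3, numpy 2.4.6, matplotlib 3.10.9, scipy 1.17.1).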

Additional observations from a re-analysis of the deposited data

Results flagged for a closer look

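Of the members, 4 were past 1.1-fold in opposite directions on the stiff matrix in control and shSrf NPCs. The share of all genes that did so was not counted, so the count of 4 is a description and not a result about the members. The difference between the populations was not tested. Des did not pass in shSrf NPCs when centred among genes of like GC content. Lmod1 lay at the threshold, with log2 ratios of 0.14 (SE 0.11) in control and -0.14 (SE 0.18) in shSrf NPCs. It passed in neither population with 1 FPKM added. The log2 ratio of 12 to 0.5 kPa was higher in shSrf NPCs by 1.24 for Tagln, by 1.05 for Cnn1 and by 0.54 for Des. Lmod1 went the other way, with a difference of -0.28 that is close to its counting SE of 0.21. Synpo2 and Myl9, which are not among the 4, differed by 0.34 and 0.28. With 1 FPKM added to each value the differences were 1.20, 0.69, 0.45 and -0.16 in the order Tagln, Cnn1, Des and Lmod1.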

How the results depend on the processing

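No paired analysis was possible because none of the 4 groups held more than 1 library. The median log2 knockdown ratio of the members, -1.50 at 0.5 kPa and -1.47 at 12 kPa, was -0.68 and -0.72 with a pseudocount of 1, -1.28 and -1.27 with a pseudocount of 0.1, and -0.57 and -0.22 with a minimum of 2 FPKM in all 4 libraries. That minimum takes Cnn1, Lmod1 and Myh11 out, and the members past 2-fold lower were then 2 at either stiffness in place of 5. Past 1.5-fold, 0 members in place of 3 were lower on 12 kPa in control NPCs, and 2 in place of 6 were higher in shSrf NPCs. With no minimum, 7.91% and 7.61% of all genes were past 2-fold lower with shSrf. Of 335 values of single genes under these alternatives, 313 stayed within the 95% counting interval of the value given and 22 moved beyond it. Of these 22, 14 moved under centring within GC bins, and 0 of the 335 changed direction. A change of the minimum cannot alter the ratio of a single gene, and a pseudocount cannot turn its direction. Centring on the median and scaling shift all genes alike. The counts of values that stayed or kept their direction were therefore in part fixed in advance. Depth limits Myh11 and Lmod1 most, and Cnn1 in the shSrf libraries.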

Other observations

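Most marker genes of striated muscle, that is of heart and skeletal muscle, were below 2 FPKM. Of 22 markers, 2 were above 2 FPKM in each control library and 3 in each shSrf library, and 4 to 10 were listed at 0. The skeletal regulator Myod1 was listed at 0 in all 4 libraries. Tnnt2, the cardiac troponin T gene, was at 11.2 and 9.03 FPKM in control and at 10.2 and 8.69 FPKM in shSrf NPCs. Tnnt1 and Tnni1 encode slow skeletal troponins and were higher in both shSrf libraries than in both control libraries. Tnnt1 was at 1.42 and 1.22, then 2.41 and 3.16 FPKM, and Tnni1 at 0.939 and 0.867, then 2.73 and 2.17 FPKM. Both were above 2 FPKM in the shSrf libraries alone. Other markers were lower in both shSrf libraries, as Ryr2 at 0.234 and 0.245, then 0.0965 and 0.108 FPKM. Nkx2-5 likewise was at 0.622 and 0.626, then 0.101 and 0.242 FPKM. The genes named here were chosen after their values were seen.

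Among signalling genes of smooth muscle, Ednra, the endothelin receptor, was at 16.3 and 14.6 FPKM in control and at 3.68 and 5.04 FPKM in shSrf NPCs. Gucy1b3, a subunit of the nitric oxide receptor guanylyl cyclase, had the opposite direction, with a log2 ratio of 1.17 on the soft matrix and 0.88 on the stiff one. Both were chosen after their values were seen.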
